A study of Mus musculus with 6 samples.

Results

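Cytosolic ribosomal protein genes encode the proteins of the large and small subunits of the ribosome that translates nuclear mRNAs. Members were all gene rows whose symbol is Rpl or Rps followed by a number, with an optional letter or copy number, together with the Rplp genes and Rpsa. The rule found 84 of the 23420 genes in the deposited count tables, 51 of the large subunit and 33 of the small subunit. RNA was sequenced from the tissue that would form the anterior hard palate of C57BL/6 mouse embryos at E14.5. The mutant embryos were Shox2Cre/-;Nkx2.5F/F, with 3 libraries, and the control embryos were Shox2Cre/+;Nkx2.5F/F, with 3 libraries. Shox2 is a homeobox transcription factor gene of the anterior palate. Both groups thus carried Cre at the Shox2 locus and floxed alleles of Nkx2-5, so the controls, titled as wild type, had 1 Shox2 allele replaced by Cre and a floxed gene that Cre can delete where Shox2 is expressed. The number of embryos behind a library is not stated in the labels, so p-values speak of the spread among these libraries, which may be technical.

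A ribosome holds 1 copy of most of its proteins, and the genes for them are scattered over the genome but are transcribed at high and broadly matched rates. The members lay on 19 chromosomes. Their mRNAs usually begin with a C followed by a run of pyrimidines, the 5′ terminal oligopyrimidine tract, through which the mTORC1 kinase pathway and the protein LARP1 control their translation and stability. Demand for ribosomes follows cell growth, and reduced dosage of single ribosomal proteins is known to affect craniofacial, limb and axial skeleton development in mice and humans.

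The genes were proposed with earlier results of the same comparison in view. Their differences between mutant and control are therefore a description, and no p-value is printed for them. Where a member is said to pass the threshold defined below, this is a label from the fit over all genes. Such labels, also those kept when libraries were left out, are not support for a difference of the family. The gene lists read beside the members were also chosen with earlier results of these data known. Most genes named from them are those with the smallest p. Their counts and adjusted p-values are likewise a description, and not separate support. In bulk tissue, fewer cells of a type and less RNA per cell cannot be told apart. Total counts were between 52668242 and 53331397 in the mutant libraries and between 81950407 and 134813429 in the control libraries, so depth and genotype cannot be told apart. Shox2 itself had 5.30, 4.12 and 3.13 counts per 1000000 counts of the library after TMM scaling of library sizes (CPM) in the mutant libraries, against 88.2, 68.2 and 81.6 CPM in the control libraries (log2 fold change −4.24, SE 0.21, edgeR adjusted p = 0.000137). Among counts of 5 to 50, even numbers made up 99.7% in mutant replicate 1, 73.0% in mutant replicate 2 and 65.9% in mutant replicate 3, against 63.6% to 64.5% in the controls. Mutant replicate 1 therefore stands apart, and counts that come in pairs make any counting interval too narrow.

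The start of the mRNA is what the family has in common outside its coding sequence. The windows below, 12 bases before and 18 after a RefSeq transcription start on GRCm38.p6, are shown for genes that recur in the results. Capitals mark a C followed by at least 4 pyrimidines that begins within 5 bases of the annotated start, searched on the transcribed strand alone, and a window all in lower case has no such run. The first 6 windows hold a run and the last 4 do not.
Rpl22l1: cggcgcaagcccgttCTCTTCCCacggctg
Rpl38: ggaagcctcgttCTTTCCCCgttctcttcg
Rpl39: aagctccgCCTCTagcgacttcttctaatc
Rps6: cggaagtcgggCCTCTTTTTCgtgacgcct
Rps15a: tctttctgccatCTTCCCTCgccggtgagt
Rps21: cgaggacccgCCCTCCTgcccaatagtgct
Rpl22: gccctgggaaaagcaatagctggccgatcg
Rpl36a: cacccaggcaccgcctataaacttccgttg
Rplp0: ttcgggtttcgaggaccgcctggttctcct
Rps19: gaaatctcgcgagactcgacgcccgacttg
The windows lie at chr3:28805496-28805525 on the plus strand for Rpl22l1, chr11:114668568-114668597 on the plus strand for Rpl38, chrX:37085205-37085234 on the minus strand for Rpl39, chr4:86857350-86857379 on the minus strand for Rps6 and chr7:118116130-118116159 on the minus strand for Rps15a. The others lie on the plus strand, at chr2:180257367-180257396 for Rps21, chr4:152325714-152325743 for Rpl22, chrX:134585642-134585671 for Rpl36a, chr5:115559455-115559484 for Rplp0 and chr7:24884580-24884609 for Rps19.

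A run of this kind was found in 31 of the 75 RefSeq promoters that matched 63 members (41.3%), against 6027 of all 32851 promoters in the table (18.3%). The run is a match of letters at an annotated start, and starts annotated a few bases off would miss it. Among tested members, the 29 with a run in at least 1 promoter had a median log2 fold change, mutant over control, of −0.56, and 24 of them passed the threshold defined below as lower. The 31 matched members without a run had a median of −0.50, with 21 lower. Of all tested genes 21.7% were lower. Since the members were chosen on this comparison, nothing is read from these counts. The Rpl22l1 and Rps21 windows hold a run and the Rpl36a and Rps19 windows hold none, and all of these genes were among the lowest in the mutant.

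Ribosomal protein mRNAs took a smaller share of the mutant libraries. They made up 3.54%, 4.22% and 4.54% of all counts in mutant replicates 1, 2 and 3, against 5.76%, 5.38% and 5.61% in control replicates 1, 2 and 3. Every mutant library was below every control library. The mean was 4.10% ± 0.511 in mutants and 5.58% ± 0.192 in controls (SD, n = 3 each), a difference of −1.48 percentage points. Without mutant replicate 1 the difference was −1.20 points.

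Both subunits had smaller shares. Large subunit genes held 2.04%, 2.38% and 2.56% of counts in the mutants, against 3.20%, 2.97% and 3.07% in the controls. Small subunit genes held 1.5%, 1.84% and 1.98% in the mutants, against 2.56%, 2.40% and 2.54% in the controls. The ratio of the mutant mean to the control mean was 0.755 for the large and 0.710 for the small subunit. Within each library, counts of large subunit genes were 1.36, 1.29 and 1.29 times those of small subunit genes in the mutants, against 1.25, 1.24 and 1.21 times in the controls. These within-library ratios, which do not depend on scaling, did not overlap.

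Of the 84 members, 81 had enough counts to be tested in the fit over all genes, 48 of the large and 33 of the small subunit. That filter on low values kept 16604 genes of the whole table. At an edgeR adjusted p under 0.05, 59 of the 81 members were lower and none was higher in the mutant, beside 21.7% of all tested genes lower and 24.1% higher. Since the genes were chosen on this comparison, nothing is read from that count. The median log2 fold change was −0.55 over the members, a fold of 0.682, with quartiles of −0.73 and −0.38, and −0.00 over all tested genes. It was −0.54 for the large subunit, with 33 genes lower, and −0.56 for the small subunit, with 26 lower. The small subunit count was 16 without control replicate 3 and 16 without mutant replicate 2, and its median was −0.43 without mutant replicate 1.

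In 73 of the 81 members every mutant library was below every control library, beside 29.2% of all tested genes, and in none was every mutant library above every control library, beside 29.7%. The 8 members whose groups overlapped were Rpl10, Rpl23a, Rpl39l, Rplp0, Rps6, Rps7, Rps14 and Rps27. A negative log2 fold change was found for 80 members, and Rps27 was the exception. Only 11 members were more than 2-fold lower, 7 of them with a mean of at least 20 CPM. Most of the difference thus consisted of modest shifts across many genes. An average log2 CPM of 8.59 or more was reached by 57 of the 81 members, with a median log2 fold change of −0.53. It was also reached by 271 genes outside the family, with a median of −0.18, 35.1% of them lower and 18.5% higher. The 76 tested nuclear genes of the mitochondrial ribosome had a median of −0.37. Of these 48 were lower and 2 higher, beside 21.7% and 24.1% of all tested genes.

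**Figure D1:**
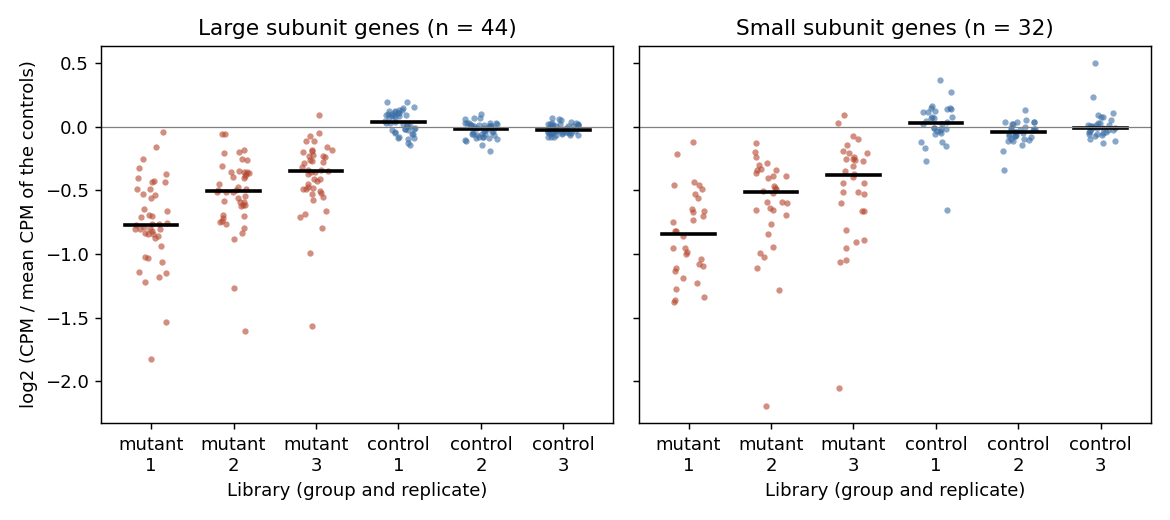
Log2 ratio of each member's CPM to its mean in the controls, by library, for the 44 large and 32 small subunit genes with a mean of at least 20 CPM. Each point is a gene and each bar the median of a library: for the large subunit the bars of mutant replicates 1, 2 and 3 lie at −0.77, −0.50 and −0.35, and the control bars at 0.03, −0.01 and −0.02.

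The mutant libraries were not alike. The median log2 ratio to the control mean over the tested large subunit genes was −0.80, −0.51 and −0.35 in mutant replicates 1, 2 and 3, against 0.03, −0.01 and −0.03 in control replicates 1, 2 and 3. Over the small subunit genes it was −0.82, −0.50 and −0.39 in the mutants, against 0.02, −0.04 and −0.01 in the controls. Mutant replicate 1 had the lowest level of the mutants for 63 of the 81 members, and mutant replicate 3 the highest for 69. The spread of a member among libraries of a group, as the coefficient of variation of its CPM, had a median of 13.3% in the mutants and 5.33% in the controls over the 76 members at 20 CPM or more. The replicate with the lowest levels for most members was thus also the one with nearly all even counts. Without it the medians were −0.45 for the large and −0.43 for the small subunit. Leaving it out does not remove the excess of even counts. Mutant replicates 2 and 3, at 73.0% and 65.9%, were also above the controls, at 63.6% to 64.5%. Across the mutant libraries the medians were lower where the even share was higher. The part of this in the values was not tested.

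**Figure D2:**
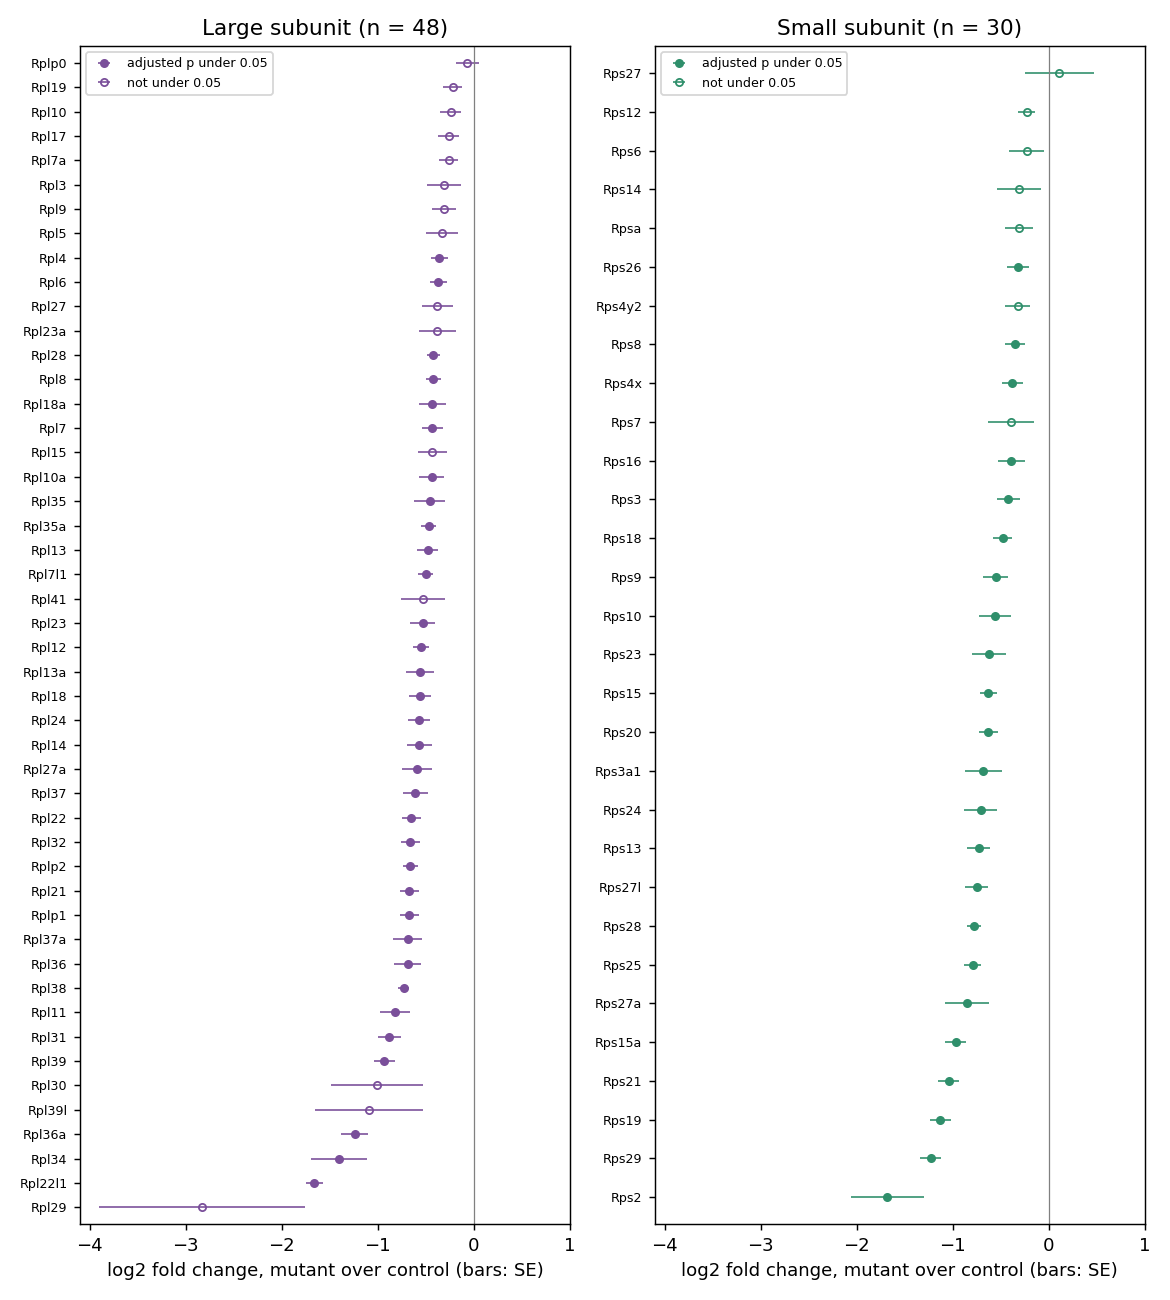
Log2 fold change, mutant over control, with its standard error, for the 48 tested large subunit genes and 30 of the 33 tested small subunit genes, ordered within each subunit; the other 3 are not shown. Filled points had an edgeR adjusted p under 0.05; 77 of the 78 points lie left of 0.

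Among large subunit genes, the proteins of the stalk did not move alike. Rplp0 anchors the stalk, and Rplp1 and Rplp2 are the acidic proteins on it that recruit translation factors. Rplp1 had 721, 774 and 886 CPM in the mutants, against 1187, 1322 and 1271 CPM in the controls (log2 fold change −0.67, SE 0.10). Rplp2 had 386, 373 and 426 CPM in the mutants, against 666, 602 and 610 CPM in the controls (−0.66, SE 0.08). Both had groups that did not overlap. Rplp0, the most abundant member in CPM, had 1808, 2069 and 2292 CPM in the mutants, against 2325, 2038 and 2094 CPM in the controls. Its groups overlapped, its log2 fold change of −0.07 (SE 0.12) was within the spread between libraries, and it was 0.02 without mutant replicate 1 and 0.00 with scaling by library size alone.

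Rpl5 and Rpl11 form a particle with the smallest rRNA of the large subunit and, when free, bind Mdm2 and stabilise p53. Rpl11 had 372, 518 and 582 CPM in the mutants, against 949, 814 and 836 CPM in the controls (log2 fold change −0.82, SE 0.16). Rpl5 had 534, 797 and 847 CPM in the mutants, against 960, 878 and 899 CPM in the controls (−0.33, SE 0.17), and did not pass the threshold. For both genes mutant replicate 1 was far below the other mutants.

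Rpl38 and Rpl24 are the large subunit genes of the classical mouse mutants Tail short and Belly spot and tail, both with skeletal defects. Rpl38, whose protein is needed for translation of Hox mRNAs in the mouse embryo, had 99.8, 93.1 and 98.9 CPM in the mutants, against 155, 163 and 166 CPM in the controls. Its log2 fold change was −0.73 with an SE of 0.06, and its mutant libraries lay close together. Rpl24 had 274, 336 and 360 CPM in the mutants, against 484, 470 and 482 CPM in the controls (−0.57, SE 0.11). Rpl35a, one of the genes mutated in human Diamond-Blackfan anaemia, had 206, 177 and 196 CPM in the mutants, against 287, 254 and 262 CPM in the controls (−0.47, SE 0.08). Rpl4 and Rpl7 are among the 5 most abundant members. Rpl7 had 968, 1150 and 1244 CPM in the mutants, against 1522, 1482 and 1537 CPM in the controls (−0.43, SE 0.11). Rpl4, whose extension lines the exit tunnel, had 1494, 1558 and 1672 CPM in the mutants, against 1939, 2064 and 2052 CPM in the controls. Its log2 fold change was −0.36 (SE 0.09), and it did not pass the threshold without control replicate 2 (−0.34), control replicate 3 (−0.35) or mutant replicate 2 (−0.35).

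Rpl22l1 combined a large difference with a small error. It encodes a paralog of Rpl22 that can take its place in the ribosome, and in mice the Rpl22 protein is known to repress Rpl22l1. Rpl22l1 (chr3:28805436-28807424) had 75.5, 87.6 and 90.3 CPM in the mutants, against 251, 278 and 272 CPM in the controls, with means of 84.4 ± 7.88 CPM in mutants and 267 ± 14.0 CPM in controls (SD, n = 3 each). Its log2 fold change was −1.66 (SE 0.09), and it stayed between −1.71 and −1.59 when any 1 library was left out. Rpl22 (chr4:152325742-152334071) had 265, 309 and 330 CPM in the mutants, against 502, 458 and 456 CPM in the controls (−0.65, SE 0.10), so both paralogs were lower in the mutant.

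Within each library, Rpl22l1 counts were 28.5%, 28.3% and 27.4% of Rpl22 counts in the mutants, against 50%, 60.6% and 59.6% in the controls. The log2 ratio was −1.83 ± 0.03 in mutants and −0.82 ± 0.15 in controls (SD, n = 3 each), a difference of −1.01, and it ranged from −1.10 to −0.96 when any 1 library was left out. The pairs of Rpl7 and Rps4x differed little. Rpl7l1 counts were 12.5%, 10.4% and 11.1% of Rpl7 counts in the mutants, against 12%, 12.3% and 11.1% in the controls (log2 difference −0.06), although Rpl7l1, a paralog that works in assembly of the large subunit, was itself lower at −0.50 (SE 0.08). Rps4y2, which GENCODE names Rps4l and lists as a transcribed processed pseudogene, stood at 3.26%, 2.16% and 2.68% of Rps4x counts in the mutants, against 3.19%, 2.36% and 2.26% in the controls. That difference was 0.05, and its sign turned to −0.01 without control replicate 2, −0.04 without control replicate 3 and −0.10 without mutant replicate 1.

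**Figure D3:**
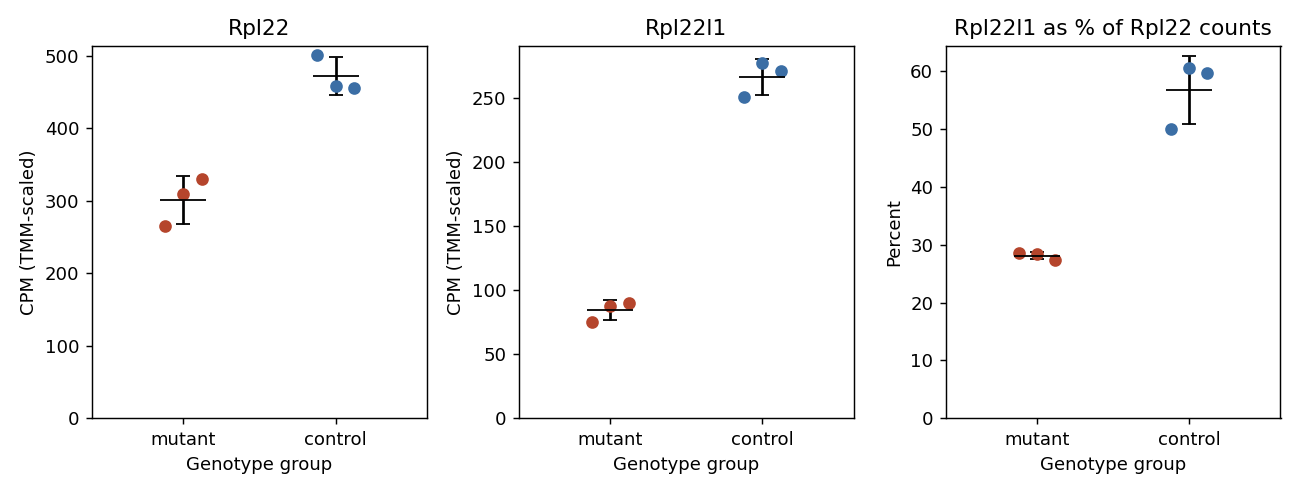
TMM-scaled CPM of Rpl22 and of Rpl22l1, and Rpl22l1 counts as a percent of Rpl22 counts, in 3 mutant and 3 control libraries. Points are libraries, with the mean and SD of each group: the percent was 27.4 to 28.5 in mutants and 50 to 60.6 in controls.

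Rpl36a and Rpl39 were also among the large subunit genes with the lowest fold changes. Rpl36a (chrX:134585654-134588062) had 142, 171 and 207 CPM in the mutants, against 376, 440 and 417 CPM in the controls (log2 fold change −1.24, SE 0.14). Rpl39, a short protein of the exit tunnel, had 258, 310 and 329 CPM in the mutants, against 534, 579 and 597 CPM in the controls (−0.93, SE 0.11). In both genes the mutant libraries were all well below the controls. At the other end of the order, Rpl19 (−0.22, SE 0.10), Rpl10 (−0.24, SE 0.11), Rpl17 (−0.26, SE 0.11), Rpl7a (−0.26, SE 0.10) and Rpl9 (−0.31, SE 0.12) did not pass the threshold. Rpl10, a late-joining protein near the catalytic centre, had 611, 462 and 526 CPM in the mutants, against 608, 637 and 643 CPM in the controls, and was the member of these whose groups overlapped. Without mutant replicate 1, Rpl10 (−0.35) and Rpl7a (−0.31) passed.

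Among small subunit genes, Rps29, Rps19 and Rps21 were more than 2-fold lower, with groups far apart. Rps19, the gene most often mutated in Diamond-Blackfan anaemia and the cause of a dark skin phenotype in mice, lies at chr7:24884371-24889806. It had 350, 417 and 464 CPM in the mutants, against 923, 874 and 898 CPM in the controls (log2 fold change −1.13, SE 0.11). Rps29 (chr12:69157722-69159186), a zinc-binding protein, had 281, 301 and 350 CPM in the mutants, against 671, 752 and 770 CPM in the controls (−1.23, SE 0.11). It is also a Diamond-Blackfan gene in humans. Rps21 had 171, 197 and 216 CPM in the mutants, against 445, 374 and 384 CPM in the controls (−1.04, SE 0.11). Rps15a had 452, 536 and 586 CPM in the mutants, against 993, 1057 and 1035 CPM in the controls (−0.97, SE 0.11). All 4 passed the threshold with every library left out in turn.

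Rps2, whose protein sits at the entry of the mRNA channel, had a log2 fold change of −1.68, below that of every other small subunit gene, with a wide SE of 0.38. It had 115, 52.9 and 58.5 CPM in the mutants, against 154, 230 and 343 CPM in the controls, and the log2 fold change ran from −2.12 to −1.35 over the fits that left out 1 library. The control libraries differed from each other by more than 2-fold. Of its 50-base windows, 79.0% also occurred in other annotated genes, among them 71 pseudogenes.

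Rps20, mutated in a second dark skin mouse line, had 468, 550 and 581 CPM in the mutants, against 808, 838 and 833 CPM in the controls (log2 fold change −0.63, SE 0.10). Rps27a, which encodes a ubiquitin fused to the ribosomal protein, had 289, 538 and 339 CPM in the mutants, against 625, 655 and 823 CPM in the controls (−0.85, SE 0.23). It did not pass without control replicate 3 (−0.72) or mutant replicate 3 (−0.76). Rps26, a further Diamond-Blackfan gene, had 421, 493 and 552 CPM in the mutants, against 584, 630 and 610 CPM in the controls (−0.32, SE 0.11). Its call was lost without mutant replicate 1 (−0.22) or 2 (−0.32) and without control replicate 2 (−0.29) or 3 (−0.32). Rps4x, the X-linked gene of a small subunit protein, had 1043, 1213 and 1290 CPM in the mutants, against 1388, 1582 and 1641 CPM in the controls. Its log2 fold change of −0.38 (SE 0.11) lost its call without mutant replicate 1 (−0.30) or 2 (−0.40) and without control replicate 2 (−0.36) or 3 (−0.33).

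Several well-studied small subunit genes lay within the spread between libraries. Rps6, the substrate of the S6 kinases, had 590, 879 and 981 CPM in the mutants, against 951, 961 and 970 CPM in the controls (log2 fold change −0.23, SE 0.18). Rps14, whose loss underlies the anaemia of human 5q deletion syndrome, had 488, 713 and 779 CPM in the mutants, against 1055, 646 and 757 CPM in the controls (−0.31, SE 0.23). Rps7, mutated in a mouse line with skeletal defects, had 360, 496 and 742 CPM in the mutants, against 772, 632 and 686 CPM in the controls (−0.39, SE 0.24). In all 3 genes the groups overlapped, with mutant replicate 3 above the lowest control. Without mutant replicate 3, Rps7 was at −0.70 and passed. Rpsa, also known as the laminin receptor, had 1226, 1638 and 1811 CPM in the mutants, against 1964, 1880 and 1958 CPM in the controls (−0.31, SE 0.15). Its groups did not overlap, and it did not pass. Rps12 (−0.23, SE 0.09) did not pass either, but did without mutant replicate 1 (−0.29).

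A few members had very low values. Rpl26 and Rpl10l, a testis-expressed retrogene of Rpl10, were listed at 0 in all 6 libraries. Rpl3l, a paralog of Rpl3 known from striated muscle, had 6, 0 and 2 counts in the mutants and 0, 4 and 7 counts in the controls. A level at the limit of 3 counts is 0.0563 to 0.0570 CPM in the mutant libraries and 0.0223 to 0.0366 CPM in the control libraries. These 3 members did not pass the filter. Rpl26, Rpl29, Rpl30, Rpl34 and Rps27 are core genes of the ribosome, so their low counts stand apart from the rest of the family.

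Rpl30 had 0.145, 0.296 and 0.484 CPM in the mutants, against 0.693, 0.634 and 0.543 CPM in the controls (log2 fold change −1.01, SE 0.48). Rpl34 had 0.945, 0.592 and 0.800 CPM in the mutants, against 2.33, 1.86 and 2.01 CPM in the controls (−1.40, SE 0.29). Rpl29 had 2.18, 2.22 and 1.77 CPM in the mutants, against 2.86, 2.32 and 38.6 CPM in the controls. Its log2 fold change of −2.83 (SE 1.07) rested on control replicate 3 and was −0.33 without it. Rps27 had 2.40, 1.89 and 1.04 CPM in the mutants, against 1.31, 1.70 and 1.91 CPM in the controls (0.11, SE 0.36), and its sign turned to −0.04 without control replicate 1 and to −0.17 without mutant replicate 1.

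The paralogs of 2 such genes were read against them. Rps27l, a p53 target, had 43.9, 57.5 and 59.6 CPM in the mutants, against 88.1, 89.3 and 93.8 CPM in the controls (−0.75, SE 0.12). The log2 ratio of Rps27l to Rps27 was 4.2, 4.93 and 5.84 in the mutants and 6.07, 5.71 and 5.62 in the controls, and rests on the low counts of Rps27. Rpl39l, another paralog best known from testis, had 0.509, 0.481 and 1.41 CPM in the mutants, against 1.05, 2.75 and 1.30 CPM in the controls (−1.09, SE 0.56). Its log2 ratio to Rpl39 differed by −0.21 between mutant and control, and by 0.19 without control replicate 2 and 0.09 without mutant replicate 2.

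Levels per length, in CPM per kb of the annotated transcript picked for each gene, put these genes in order. Whether that transcript is the expressed one was not tested. Among the highest in the controls were Rplp1 at 2525, Rpl41 at 2319, Rps29 at 1874 and Rps15 at 1858 CPM per kb. The lowest above 0 were Rpl3l at 0.0224, Rpl30 at 1.09, Rpl39l at 2.11, Rpl34 at 4.30, Rps27 at 4.76 and Rpl29 at 19.9 CPM per kb. The level of Rpl29 rested on control replicate 3 and was 3.53 CPM per kb without it, below Rpl34 and Rps27. Ribosomal protein genes have many processed pseudogenes, which carry copies of the mRNA. Of the 50-base windows of the annotated transcript, those also found in another annotated gene made up 98.7% for Rps27, 71.3% for Rpl26, 66.8% for Rpl29, 50.6% for Rpl34 and 47.8% for Rpl30. The handling of reads that match several places is not given in the sources used.

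**Figure D4:**
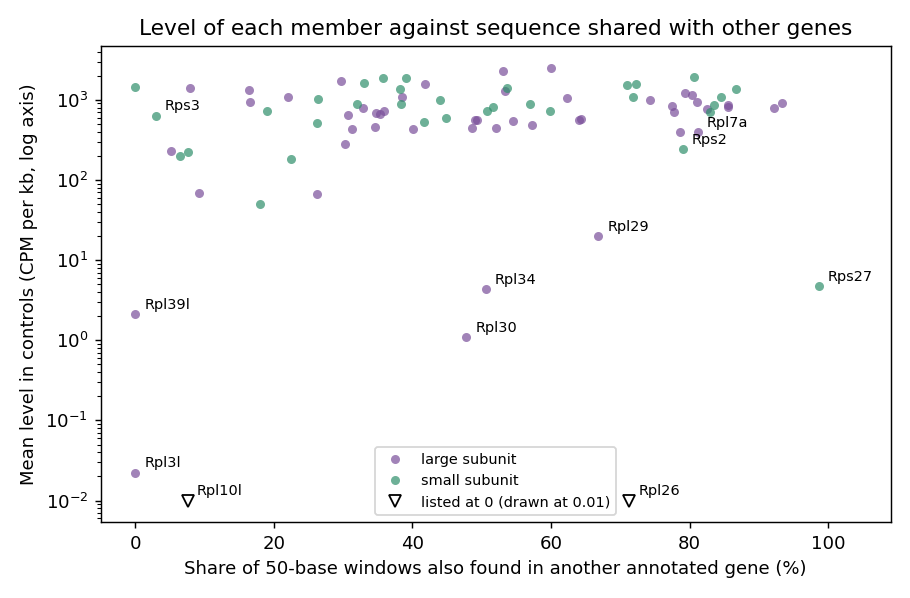
Mean control level of each member in CPM per kb, on a log axis, against the percent of its 50-base windows found in another annotated gene. Purple points are large and green points small subunit genes, and triangles mark Rpl10l and Rpl26, listed at 0; Rps27, with 98.7% of windows shared, lies near 4.76 CPM per kb, while the 14 members above 80% had a median of 851.

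The class with the most shared windows did not have the lowest levels per length, but the classes do not compare like with like. Shared windows and level per length both come from the same annotated transcript, and a long transcript lowers both. Rps15a, with 5179 bases, had 6.37% of windows shared and 199 CPM per kb at 1028 CPM in the controls. Rpl10l, Rpl3l and Rpl39l, with low counts or none, were also in the class under 20%. The 14 members with over 80% of windows shared had a median of 851 CPM per kb in the controls, and the 14 with under 20% had 227 CPM per kb. Their median log2 fold changes were −0.34 over 80% and −0.56 under 20%. In these classes 6 of 14 and 10 of 12 tested genes were lower, beside 21.7% of all tested genes. For members with copies such as Rpl7a, with 81.2% of windows shared and 120 pseudogenes that share sequence, reads of the gene and of its copies may have been split, and their values are uncertain.

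Transcript length went with the fold change among other genes, and in part among the members. In the 13 members under 500 bases the median log2 fold change was −0.75, beside −0.21 for 245 other genes of that length. In the 24 members of 750 to 1000 bases it was −0.45, beside −0.13 for 631 other genes. In the 8 members of 1500 to 2500 bases it was −0.42, beside −0.02 for 3976 other genes. The member median was below that of other genes in each of the 7 length classes. The longest 2 classes held only 2 genes (Rpl7l1 and Rps20) and 1 gene (Rps15a). Each length is that of 1 annotated transcript picked for the gene, such as 3706 bases for Rps20 and 5179 for Rps15a. Whether that transcript is the expressed one was not tested, so the class of a member is uncertain. After each library was corrected for gene GC content and length, the median was −0.50 for the large and −0.51 for the small subunit. Over the 76 members at 20 CPM or more, Spearman's rho of the log2 fold change, as a description across genes of the same libraries, was 0.24 with length, 0.11 with GC content, 0.19 with shared windows and 0.30 with mean CPM.

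**Figure D5:**
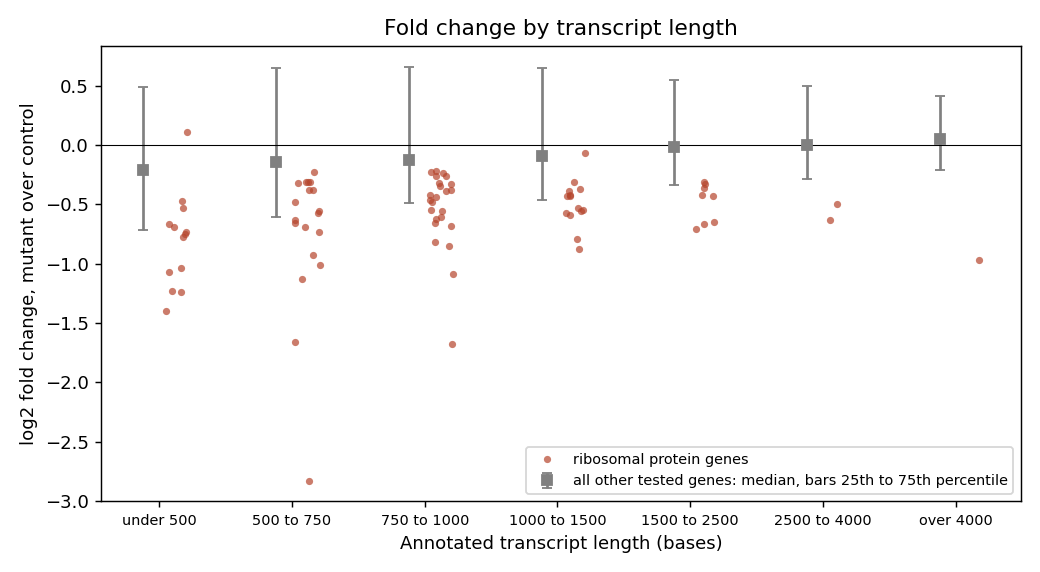
Log2 fold change, mutant over control, by annotated transcript length in bases. Red points are the 81 tested members, and grey squares with bars are the median and the 25th to 75th percentile of all other tested genes; in the class under 500 bases the members' median was −0.75 and that of other genes −0.21.

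Cytosolic ribosomal protein genes that the symbol rule leaves out had 1 of 4 tested genes fallen and none risen, a share near the 21.7% of all tested genes that were lower. Rpl36al, a retrogene copy of Rpl36a, fell to 46.4, 70.4 and 71.5 CPM in the mutants, against 135, 134 and 135 CPM in the controls (log2 fold change −1.10, SE 0.16, edgeR adjusted p = 0.00163). Fau, which encodes a ubiquitin-like protein fused to a small subunit protein, had 288, 363 and 389 CPM in the mutants, against 506, 414 and 429 CPM in the controls (−0.38, SE 0.13, edgeR adjusted p = 0.0503), and passed without mutant replicate 3. Gnb2l1, the scaffold protein Rack1, was at −0.13 (SE 0.10, edgeR adjusted p = 0.34).

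Genes that build ribosomes were mostly lower. Of 55 tested ribosome biogenesis and nucleolar factors, 46 fell and none rose, with a median log2 fold change of −0.45, beside the 21.7% and 24.1% of all tested genes. Fbl, the methyltransferase of box C/D small nucleolar particles, had 78.0, 81.9 and 88.3 CPM in the mutants, against 165, 175 and 169 CPM in the controls (−1.04, SE 0.07, edgeR adjusted p = 0.000225). Gar1, of the box H/ACA particles, fell by 0.91 on the log2 scale (edgeR adjusted p = 0.000257), and Ebna1bp2, a large subunit assembly factor, fell by 0.72 (edgeR adjusted p = 0.000287). Of 14 genes of RNA polymerase I, which transcribes rRNA, and its factors, 7 fell and none rose (median −0.25), with Polr1e at −0.76 (SE 0.11, edgeR adjusted p = 0.00189), Taf1d at −0.56 and Polr1c at −0.56.

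Translation factors are read beside the 21.7% of all tested genes that were lower and the 24.1% that were higher. Of 9 genes listed as elongation factors 6 fell and none rose (median log2 fold change −0.54). Among them was Eef1b2, the exchange factor of the tRNA carrier (−0.72, SE 0.10, edgeR adjusted p = 0.0013). Eef1b2 had 454, 533 and 566 CPM in the mutants, against 849, 846 and 862 CPM in the controls. Eef1d (−0.54, edgeR adjusted p = 0.0022) also fell, as did Eef1e1 (−0.74, edgeR adjusted p = 0.0017), which is on the list by its symbol alone. The 3 that did not pass were Eef1a1 (−0.23), Eef2 (−0.06) and Eef1a2 (−2.45), which was below 1 CPM in all libraries and passed without control replicate 3. Of 35 initiation factor genes 23 fell and 2 rose (median −0.29). Eif3m fell by 0.72 (edgeR adjusted p = 0.000771) and Eif1ax fell by 0.53 (edgeR adjusted p = 0.000803). Eif2b2 rose by 0.54 (edgeR adjusted p = 0.000995), as did Eif4g3 by 0.26 (edgeR adjusted p = 0.0209), which lost its call without control replicate 2 or 3 or mutant replicate 2.

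Other mRNAs known to begin with an oligopyrimidine tract were the next group. Of 21 tested, 10 fell and none rose, with a median log2 fold change of −0.38, beside 21.7% lower and 24.1% higher among all tested genes, and 13 of the 21 are also in another of the lists of factors given here. Npm1, a nucleolar chaperone, fell by 0.90 (edgeR adjusted p = 0.000371), and Gas5, a snoRNA host transcript, fell by 0.85 (edgeR adjusted p = 0.000564). Hnrnpa1 fell by 2.15 (edgeR adjusted p = 0.000274), at 3.32 CPM in mutants and 14.7 CPM in controls on average, the lowest levels of the 21 genes. Tpt1 stood at −0.24 and did not pass.

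Regulators of ribosome production did not share a direction. Of 18 genes of the mTORC1, S6 kinase and MYC systems, 6 fell and 2 rose (median log2 fold change −0.14), beside 21.7% lower and 24.1% higher among all tested genes. Rps6kb1, an S6 kinase, had 75.8, 74.8 and 77.9 CPM in the mutants, against 116, 128 and 122 CPM in the controls (−0.68, SE 0.06, edgeR adjusted p = 0.000377). Rheb, the activator of mTORC1, fell by 0.36 (edgeR adjusted p = 0.00299), and Mycn fell by 1.17 (edgeR adjusted p = 0.00382). Mtor rose by 0.30 (edgeR adjusted p = 0.0216) and Deptor, an mTOR inhibitor, by 1.08 (edgeR adjusted p = 0.025). Neither passed without control replicate 2 or 3 or without mutant replicate 2 or 3. Larp1, which binds the oligopyrimidine tract, was at 0.01 (SE 0.07).

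Counts of genes in the lists that follow stand beside 21.7% of all tested genes lower and 24.1% higher. Of 20 replication and mitosis genes, 15 fell and none rose (median log2 fold change −0.49), among them Ccne1 (−0.73), Bub1b (−0.74) and Ccnb1 (−0.67), with edgeR adjusted p of 0.000403 for Ccne1. Markers of other cell types also differed between the groups. The 11 epithelial markers, all higher in the mutant, summed to 5485 to 6179 CPM in the mutants, against 1042 to 1740 CPM in the controls. The 9 macrophage markers tested, all higher, summed to 345 to 448 CPM in the mutants, against 80.47 to 140.99 CPM in the controls. Of 6 tested red blood cell markers 3 were lower, and the list summed to 213 to 437 CPM in the mutants, against 517 to 996 CPM in the controls, with Hba-a1 and Hba-a2 listed at 0 in all libraries. Of 8 tested muscle markers 5 were lower, with sums of 7.36 to 12.4 CPM in the mutants and 11.8 to 59.5 CPM in the controls. None of 8 endothelial markers passed, with sums of 486 to 657 CPM in the mutants and 417 to 543 CPM in the controls. Palatal mesenchyme markers were present in all libraries, at 10152 to 11770 CPM in the mutants and 6655 to 15266 CPM in the controls. Most of these sums came from Col1a1 and Col1a2, neither of which passed, so they say little of the other markers. Col1a1 had 1856 CPM in control replicate 1, against 6328 and 5139 CPM in control replicates 2 and 3. Of the 10 markers 4 were lower, with log2 fold changes from −2.07 to −0.39, and 1 was higher, at 0.50. The part of these cell types in the ribosomal protein values was not tested.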

How the data were processed

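RNA of 3 mutant and 3 control libraries was analysed. The values are raw read counts for each gene symbol, deposited with 1 table per library. HISAT2, StringTie and the builds mm9 and mm10 appear in the list of tools and genomes, per the submitters' processing notes. Which counter was used, with which annotation, strand setting and treatment of reads that match several places, is not given in the sources used, so genes overlapping on opposite strands cannot be separated. Groups and replicate numbers came from the titles.

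The raw counts went into edgeR 4.0.16 (R 4.3.3). After filterByExpr with the groups and TMM scaling, genes were tested with the two-sided quasi-likelihood F test without covariates, with Benjamini-Hochberg adjustment over all tested genes and a threshold of 0.05. A gene described as passing, lower, higher, fallen or risen is one under that threshold, except where values or medians are compared directly. Standard errors are the absolute log2 fold change over the square root of F. CPM values are TMM-scaled, shares of counts and the 3-count limit are not. The test steps were checked on simulated data. The members and gene lists were chosen with earlier results of these data known. Members named were the 6 highest and 6 lowest per subunit by log2 fold change at a mean of at least 1 CPM, the 5 most abundant, the paralog pairs and genes with well-known roles, and for each list up to 3 genes with the smallest p among those that passed. Others, such as Rpl3l, Rpl26, Rpl30, Rpl41, Rps15, Rps4y2, Eif4g3, Mtor, Deptor, Larp1, Tpt1, Fau, Gnb2l1, Eef1a1, Eef1a2 and Eef2, were named after their values were seen. Some genes that the rule or the lists hold are not reported here by name.

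Position, length, GC content and shared windows came from GENCODE M21 (GRCm38) by symbol, with 23024 of 23420 matched (98.3%) and all 84 members. Start windows are from RefSeq on GRCm38.p6. Alternatives were DESeq2 1.42.0, limma-voom (limma 3.58.1), other scalings and filters, a GC and length correction, a replicate block and leaving out libraries.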

Additional observations from a re-analysis of the deposited data

How the results depend on the processing

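Counts of members lower in the mutant were 38 large and 27 small subunit genes with DESeq2, 34 and 26 with limma-voom, 36 and 26 with TMM computed without the members, and 30 and 22 with scaling by library size alone, against 33 and 26 in the report, with no member called higher under any of these. Scaling by library size alone moved the median of all genes by 0.06 and the whole-table split to 4489 higher and 2868 lower, against 3999 and 3607; the members' medians were then −0.47 and −0.50. When 1 library was left out, the large subunit count ran from 27 to 36 and the small from 16 to 25, with medians from −0.61 to −0.45 and from −0.70 to −0.43. Of the 59 members called lower, 41 were called in each of these fits, and 79 of 81 were negative in each, the exceptions being Rplp0 and Rps27. Without replicate 1 of both groups the small subunit median was −0.41, Rplp0 was 0.07, Rps14 was 0.08 and Rps27 was −0.31. With library size alone Rplp0 and Eef2 were both at 0.00. Over the fits that left out 1 library, Rplp0 ran from −0.15 to 0.02 and Rps27 from −0.17 to 0.38, with −0.04 without control replicate 1. The difference in the Rpl39l ratio ran from −0.64 to 0.19, and that in the Rps4y2 ratio from −0.10 to 0.21. Members with under 20% of windows shared had medians of −0.57 and −0.53, and those of at least 20 CPM −0.51 and −0.59, both choices made after seeing the data.

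For lists, 2 of the genes outside the symbol rule were lower with DESeq2, limma-voom, no filter, TMM without the members and without mutant replicate 3, and 1 was higher without mutant replicate 1 and without replicate 1 of both groups, as was 1 gene of the oligopyrimidine list. Initiation factors called higher numbered 1 without control replicate 2 or 3 or mutant replicate 2. Of the mTORC1 and MYC list 0 were higher with the replicate block and without any of control replicates 2 and 3 and mutant replicates 2 and 3. The cause of these changes was not tested. Same-numbered libraries had correlations of 0.081, 0.082 and 0.020 between their deviations from the group means. Whether the numbers pair the libraries cannot be told from values this small. Every library correlated best with its own number except control replicate 3, which correlated best with mutant replicate 2. With the replicate block 33 large and 23 small subunit genes were lower, with medians of −0.55 and −0.59, and 3720 genes in all were higher and 3302 lower. With the block and the GC and length correction 32 and 22 were lower, with medians of −0.51 each. At the depth of these libraries a level at 3 counts is between 0.0223 and 0.0570 CPM. Rpl26 and Rpl10l were listed at 0, below it. For Rpl26, 71.3% of the 50-base windows also occur in other annotated genes. How reads that match several places were counted is not given, so its 0 sets no limit on its mRNA.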
